A study of Mus musculus with 6 samples.

Results

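The genes described here encode the initiation and elongation factors of cytosolic translation. They were taken from the table of normalized counts by gene symbol: every gene whose mouse symbol begins with Eif1 to Eif6, Eef1 or Eef2, without the Eif2ak kinases, the Y-linked Eif2s3y and pseudogenes. The rule used names and no measured value. It gave 63 of the 26789 genes in the table. Of these, 62 reached an average of 10 normalized counts across libraries and were tested. The gene below that limit was Eif2c5, a long noncoding RNA that carries an old symbol of the Argonaute family. Eef1akmt4, a lysine methyltransferase gene that the rule also names, was not analysed here.

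The libraries were made from microglia, the brain's own macrophages, of the rostral nucleus of the solitary tract (NST), the first taste relay of the brainstem, in mice at postnatal day 15 (P15). In one group the dams ate a low-sodium chow from embryonic day 3 to embryonic day 12 and ordinary chow afterwards (E3–E12 diet mice), and in the other they ate ordinary chow throughout (controls, C57Bl/6). There were 3 libraries per group, each from the pooled tissue of 6 littermates, so a replicate is a litter and the spread within a litter is not seen. By the study's protocol the cells were sorted with magnetic beads against CD11b, a surface protein of all myeloid cells, whereas the deposited description names laser microdissection, so how the cells were obtained is uncertain. Values of a group are given below as normalized counts of replicates 1, 2 and 3 in that order, and where values are set against each other the controls come first. Eif2c5, for example, had 9.29, 0 and 2.71 against 10.2, 2.24 and 0.943.

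Translation starts when eIF2, carrying GTP and the initiator methionyl-tRNA, joins the small ribosomal subunit with eIF1, eIF1A, eIF3 and eIF5. The eIF4F complex recruits this assembly to the cap of the mRNA, and eIF5B joins the large subunit, after which eEF1A brings aminoacyl-tRNAs and eEF2 moves the ribosome along codon by codon. Most of these proteins are needed in every cell, and signalling acts mainly on a few of them: phosphorylation of eIF2 blocks its recharging by eIF2B, the 4E-binding proteins hold the cap-binding protein eIF4E when mTORC1 is inactive, and eEF2 kinase slows elongation. Many of their mRNAs begin with a cytosine and a run of pyrimidines, the terminal oligopyrimidine (TOP) motif that couples them to mTORC1 through LARP1.

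The sequence at the annotated transcript start is shown for the genes whose libraries separated by diet (described below) and for Eif2s3x, to show which of them carry such a start. Each line has the 10 bases before the RefSeq start and the 20 bases from it (build GRCm38.p6), and capitals mark the run of pyrimidines that begins with a C at the start itself.
Eif3f, chr7:108934405-108934434, plus strand: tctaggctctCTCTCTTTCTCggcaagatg
Eif2s3x, chrX:94212632-94212661, minus strand: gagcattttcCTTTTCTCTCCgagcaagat
Eef1a2, chr2:181156996-181157025, minus strand: cctggtctgcgttctcgctcactggttctc
Eif4e2, chr1:87213901-87213930, plus strand: cgcctcgccagccaaccggaagtagccggg
Eif3g, chr9:20898571-20898600, minus strand: acccgggctgggagctgcgtggagttaaga
Eif5b, chr1:37998000-37998029, plus strand: ctgggttcccacctggccggcggctctact
The motif searched was a C at the start followed by at least 4 bases that are each C or T, read on the strand of the gene. It was found in 3 of the 47 members with an entry in the RefSeq table (6.38%), namely Eif3f, Eif2s3x and the noncoding Eif2c5, and in 813 of the 27025 genes of that table (3.01%). Annotated starts are often some bases off the ones a cell uses, and a run that begins a few bases away was not counted, so a missing match says only that these letters are not at the annotated start. Eif4e2 has several RefSeq starts, of which the one farthest upstream is shown.

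Before the results, the libraries themselves differed. The normalized counts of a library summed to between 9407141 and 17204618, and the read depth behind them is unknown because no raw counts were used here. Control replicate 2 stood apart, with the highest total and 10640 genes listed at 0 against 3459 to 7135 in the other libraries. All 10 microglial markers were present in every library. Their sum made up 2.89% of control replicate 2, between 2.06% and 2.11% of control replicate 3 and E3–E12 diet replicates 2 and 3, and 1.05% and 1.06% of control replicate 1 and E3–E12 diet replicate 1. Where a fold change given below rests strongly on control replicate 2, its value without that library stands beside it.

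The factors made up 0.576% to 0.705% of a library. On the log2(normalized count + 1) scale the mean level of the 62 tested genes was 8.25, 8.63 and 8.61 in control replicates 1 to 3 and 8.18, 8.40 and 8.87 in E3–E12 diet replicates 1 to 3. The group means of 8.50 ± 0.216 and 8.48 ± 0.355 (SD, n = 3 litters each) lay closer together than the libraries within either group. The same mean over all 18007 genes tested was lowest in control replicate 2, at 6.13, and between 6.62 and 7.09 in the other libraries.

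The 2 libraries with the lowest level of the factors, control replicate 1 and E3–E12 diet replicate 1, were also those with the smallest share of microglial markers. They had the smallest totals of normalized counts as well, 9671119 and 9407141. Counting ties, 33 of the 62 genes (53.2%) had their lowest value in one of these libraries, against 30.1% of all genes tested. The highest value lay in control replicate 2 for 24 genes (38.7%, against 26.3% of all genes tested) and in E3–E12 diet replicate 3 for 15 (24.2%, against 13.2%). In E3–E12 diet replicate 3, 1 of the 62 genes, Eif2b5, had its lowest value (1.61%, against 16.1% of all genes tested). Whether the share of microglia or the total of the library plays a part in these levels was not tested. In such pooled samples fewer cells of a type and less RNA per cell cannot be told apart.

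**Figure D1:**
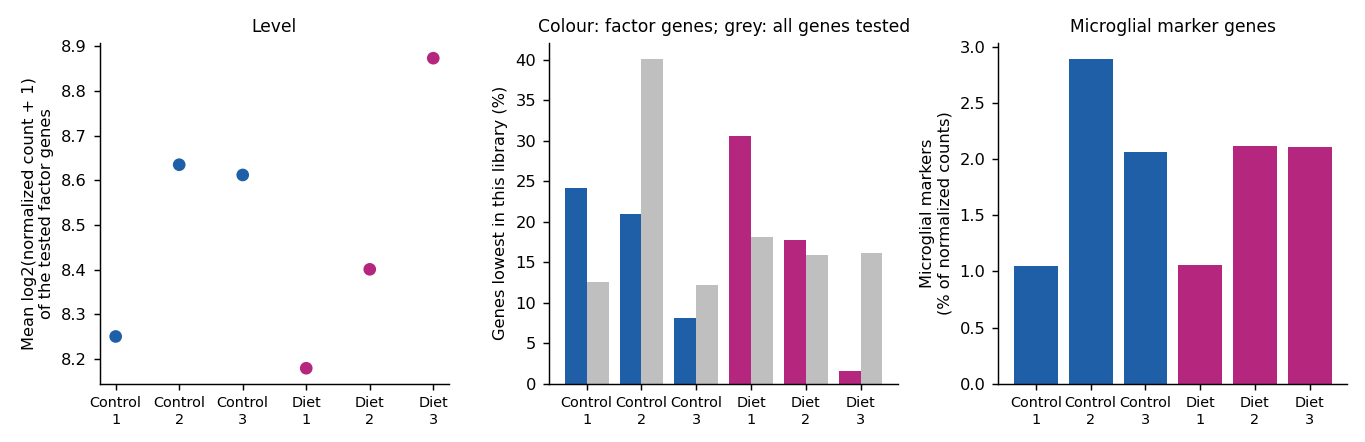
Factor genes and microglial markers by library, with controls in blue and E3–E12 diet mice in magenta. Left, the mean log2(normalized count + 1) of the 62 tested factors, between 8.18 and 8.87. Middle, the percentage of the factors (colour) and of all genes tested (grey) whose lowest value was in that library, where control replicate 2 held 21.0% of the factors and 40.1% of all genes. Right, the share of normalized counts in 10 microglial markers, lowest in control replicate 1 and E3–E12 diet replicate 1.

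The first question was which factors these microglia express most. Levels between genes were compared as normalized counts per kilobase of exon, where the length is that of all annotated exons of a gene together. Transcripts that use fewer exons are shorter, so the order depends on the annotation. Eef1a1, which encodes the main carrier of aminoacyl-tRNA, led with a mean of 3276 per kilobase over the 6 libraries, followed by Eef2 with 2335 and Eif1, which guards the choice of the start codon, with 1478. Next came Eif4g2, a scaffold without a cap-binding partner, with 1101, Eif4ebp2 with 991, Eif5a with 979 and Eif4a1 with 800.1. At the other end Eef1e1, a component of the multi-synthetase complex named after eEF1, had 4.33 and Eif2b4 had 8.79. The median gene had 117 per kilobase, and the highest was 757 times the lowest.

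Of the 61 neighbouring pairs in this order, 1 kept its order in every library and 0 had libraries that did not overlap, so no neighbours differed beyond their spread. At the top, Eef1a1 had 1900.3, 3477 and 5249 against 1739.5, 1987 and 5304 per kilobase and Eef2 had 1751, 3365 and 1927 against 1389, 2095 and 3484, so that Eef1a1 was the higher in 5 of the 6 libraries and Eef2 in E3–E12 diet replicate 2. Their normalized counts, not divided by length, were 4737, 8669 and 13086 against 4337, 4954 and 13224 for Eef1a1 and 5822, 11186 and 6405 against 4617, 6963 and 11579.9 for Eef2. The ratio of the highest to the lowest library was under 2 for 8 genes, between 2 and 5 for 33 and at least 5 for 17, and 4 genes had a value of 0 somewhere. Some levels also rest on reads that cannot be placed with certainty: of all 50-base windows of the Eef1a1 transcript, 39.4% also occur in other annotated genes, and this share was over 10% for 14 of the 62 genes.

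**Figure D2:**
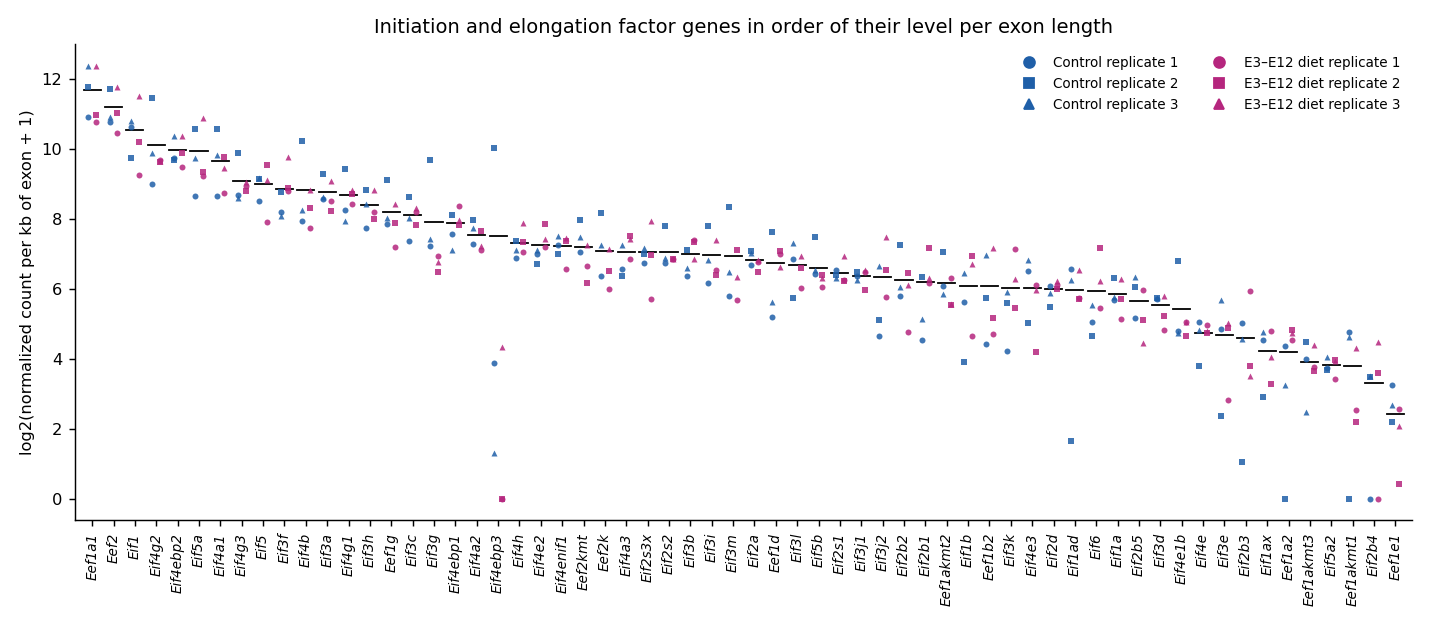
Levels of the 62 tested factor genes, in order of their mean over the 6 libraries (black line). The y axis is log2(normalized count per kilobase of exon + 1), and each point is a library, with controls in blue and E3–E12 diet mice in magenta. The order runs from Eef1a1 (3276 per kilobase) to Eef1e1 (4.33), and the square of control replicate 2 often lies far from the other controls.

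The second question was whether the factors differed between the diets. None of the 62 genes passed the adjusted threshold of 0.1 (limma with Benjamini-Hochberg adjustment over the 18007 genes tested; 0% of all genes tested passed), and every factor had an adjusted p of 0.999. No factor had an unadjusted p under 0.05 either, where 268 genes (1.49% of all tested) had one. The smallest was 0.0730, for Eif3g. The median log2 fold change of E3–E12 diet over control was -0.066 for the factors and 0.087 for all genes tested. The median standard error was 0.61, and a difference must be well over its standard error to be called. Eif3g, at -1.38 with a standard error of 0.70, was not called. Differences of about 0.61 in single factors were therefore not detectable with these libraries, and larger ones could be missed.

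The log2 fold change was positive for 24 of the 62 genes and negative for 38 (38.7% positive, against 54.4% of all genes tested). This split moved with the scaling: it was 35 and 27 after each library was brought to the same total, which moved the median of all genes from 0.087 to 0.198, and 30 and 32 after quantile normalization. Without control replicate 2 it was 33 and 29. In 37 genes the log2 fold change was within 0.5 of zero, and it was over 1 in size in 10. Of the 2 tested genes with a TOP-like start, Eif3f had a log2 fold change of 0.80 and Eif2s3x one of -0.086, which turned positive with equal totals (0.034). The 44 tested genes with an entry but without such a start had a median of -0.066.

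**Figure D3:**
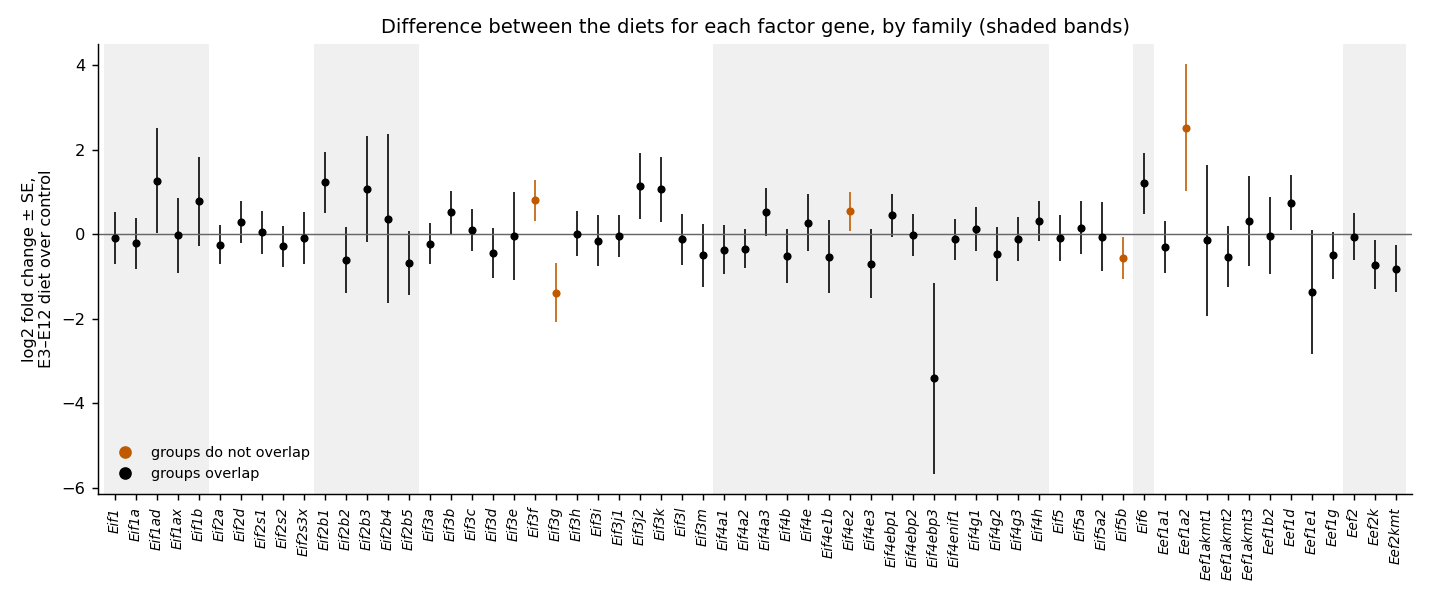
Log2 fold change of E3–E12 diet over control with its standard error from limma, on the log2(normalized count + 1) scale, for each of the 62 tested factor genes, grouped by family in bands. No gene passed the adjusted threshold. Orange marks the 5 genes whose libraries did not overlap between diets, and the widest errors belong to genes listed at 0 in some libraries, such as Eif4ebp3.

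In 5 of the 62 genes (8.06%) every library of one diet lay above every library of the other, a pattern found in 5.90% of all genes tested. Eef1a2, Eif3f and Eif4e2 were the 3 with higher values in E3–E12 diet mice (2.99% of all genes tested), and Eif3g and Eif5b the 2 with lower values (2.91%).

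Eif3f encodes a subunit of the outer part of the eIF3 complex. It had 837, 1255 and 782 normalized counts among controls and 1289, 1357 and 2493 with the E3–E12 diet. The lowest E3–E12 diet value was close to the highest control value, and E3–E12 diet replicate 3 was far above all others. The log2 fold change was 0.80 (standard error 0.49), between 0.50 and 1.01 with 1 library left out at a time. The diets remained apart for this gene after quantile normalization and with equal totals, where its unadjusted limma p was 0.042 and 0.043. No factor passed the adjusted threshold in either.

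Eif3g encodes an RNA-binding subunit of eIF3 that acts in scanning. The controls had 296, 1607 and 335 normalized counts and the E3–E12 diet libraries 242, 173 and 214. Control replicate 2 held most of the difference: the log2 fold change was -1.38 (standard error 0.70) with it and -0.60 without it. Groups that do not overlap stay apart when any library is left out, so the order of the remaining libraries adds nothing.

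Eif5b, the GTPase that joins the large ribosomal subunit, followed the same order, with 823, 1712 and 894 normalized counts among controls and 634, 806 and 764 with the E3–E12 diet. The gap between the nearest libraries of the diets was small, and the log2 fold change of -0.56 (standard error 0.49) became -0.23 without control replicate 2.

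Eif4e2 encodes 4EHP, a cap-binding protein that does not bind eIF4G and is known as a repressor of translation. It had 940.0, 782 and 1029.5 normalized counts among controls, the narrowest relative spread among the controls of these 5 genes, and 1085, 1711 and 1271 with the E3–E12 diet. E3–E12 diet replicate 1 was just above control replicate 3. The log2 fold change was 0.55 (standard error 0.46) and between 0.37 and 0.69 with 1 library left out at a time. The diets stayed apart after quantile normalization and overlapped with equal totals.

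Eef1a2 encodes the eEF1A isoform that replaces eEF1A1 in neurons and muscle. It was low, with 41.0, 0 and 17.8 normalized counts among controls and 46.4, 57.2 and 52.9 with the E3–E12 diet. Its log2 fold change of 2.52 (standard error 1.5) rested on control replicate 2, where the gene was listed at 0, and was 0.92 without it. The groups overlapped both after quantile normalization and with equal totals. As to neurons, the summed counts of 8 neuronal markers were 1630, 754 and 1024 among controls and 1828, 1404 and 840 with the E3–E12 diet. Of these markers Rbfox3, Stmn2 and Syt1 were, like Eef1a2, listed at 0 in control replicate 2, whereas Gad1 was at its highest there (493) and Nefl (131) was above both other controls. The part of neuronal RNA in the values of Eef1a2 was not tested.

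**Figure D4:**
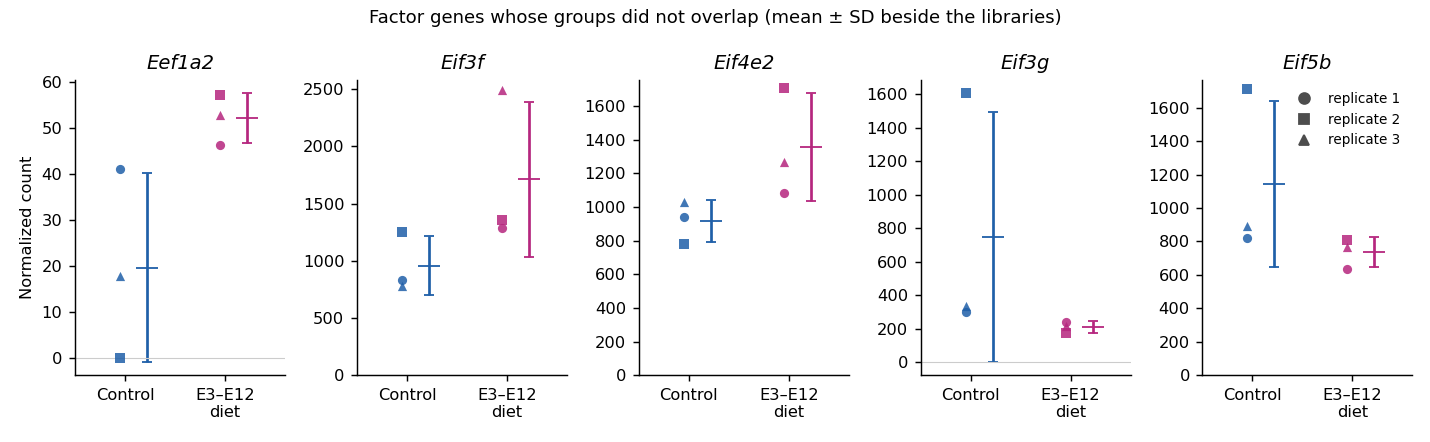
Normalized counts of the 5 factor genes whose libraries did not overlap between diets. Each symbol is a library (circle, square and triangle for replicates 1, 2 and 3), and the bar beside it is the group mean ± SD (n = 3). The squares of control replicate 2 set the spread of Eif3g and Eif5b, and in Eef1a2 the square is at 0.

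The remaining factors are described by their step in translation. In start-codon selection, Eif1 had 3323, 1796 and 3728 normalized counts among controls and 1285, 2436 and 6042 with the E3–E12 diet, with both the highest and the lowest value among the E3–E12 diet libraries. Eif1ax, the X-linked gene of eIF1A, which helps eIF1 in scanning, was far lower at 118, 33.9 and 139 against 139.6, 46.1 and 82.4. Of the 5 tested genes with an Eif1 symbol, 2 had a positive and 3 a negative log2 fold change, with a median of -0.024. Without control replicate 2, 1 was positive and the median was -0.40.

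The 3 subunits of eIF2 carry the initiator tRNA. Eif2s1, the alpha subunit that stress kinases phosphorylate, was among the steadiest genes, with 453, 409.8 and 388 normalized counts among controls and 369, 365 and 596 with the E3–E12 diet. Eif2s2, the beta subunit, was close in 5 libraries and higher in control replicate 2, with 707, 1495 and 790.4 against 776, 776 and 768. Eif2s3x, the gamma subunit and a gene with a TOP-like start, had 398, 482 and 537 in the controls and the widest spread of the subunits within the E3–E12 diet group, 197, 469 and 932. A share of 34.6% of its 50-base windows occur in other genes.

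eIF2B is the exchange factor that reloads eIF2 with GTP, and mutations in any of its 5 subunits cause a white matter disease. Eif2b1, its alpha subunit, had 56.9, 207 and 88.0 normalized counts among controls and 183, 371 and 203 with the E3–E12 diet. Control replicate 2 lay among the E3–E12 diet values. The log2 fold change of Eif2b1 was 1.23 (standard error 0.72) and 1.75 without that library. Eif2b4, the delta subunit, could hardly be measured, at 0, 26.6 and 26.8 against 0, 28.9 and 54.8, and its log2 fold change of 0.37 had a standard error of 2.0 and was 1.17 without control replicate 2. Eif2b5, the catalytic epsilon subunit, had 89.8, 168 and 209 against 160.1, 87.3 and 54.2. Of the 5 subunits 3 had a positive and 2 a negative log2 fold change, and 2 were positive without control replicate 2.

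eIF3, the largest of the initiation complexes, holds the small subunit and the mRNA together. Eif3a, its scaffold, had 3292, 5368 and 3418 normalized counts among controls and 3171, 2574 and 4704 with the E3–E12 diet. Eif3b, another core subunit, had 272, 453 and 318 against 558, 538 and 385, and Eif3c, which binds eIF1 and eIF5, had 578, 1390.3 and 914 against 1020.0, 797 and 1109. In all 3 the groups overlapped. Eif3h, a subunit of the outer module, had 345, 720.1 and 548 against 466, 412 and 729. Eif3e, of the same module, lay below Eif3h in every library, with 189, 27.6 and 336 against 40.8, 189 and 212.

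Per kilobase the 13 distinct eIF3 subunits were unequal in every library. The highest was 7.84 times the lowest in control replicate 3 and 197 times in control replicate 2, with ratios between 16.7 and 73.5 in the other libraries. Eif3e was the lowest in 5 of the 6 libraries and Eif3k in control replicate 1, and Eif3f was the highest in all 3 E3–E12 diet libraries, against Eif3a or Eif3g in the controls. Of the 14 tested Eif3 genes 6 had a positive log2 fold change, and 10 had one without control replicate 2. The remaining gene, Eif3j2, had 57.3, 79.4 and 235 against 126, 217 and 425 normalized counts and a log2 fold change of 1.14 (standard error 0.78), but 91.8% of its windows are shared, mostly with its near copy Eif3j1, so its value is uncertain.

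The eIF4 genes work at the cap. Eif4e, the cap-binding protein, had 194, 77.7 and 164 normalized counts among controls and 182, 153 and 161 with the E3–E12 diet, so that 5 of the 6 libraries were close together and control replicate 2 was low. Eif4g1, the scaffold of eIF4F, had 2226, 4978 and 1763 against 2510.0, 3049 and 3292. Its relative Eif4g2, which works without a cap, had 5182, 28195 and 9506 against 8240.2, 7952 and 8108, and control replicate 2 alone held more of it than all E3–E12 diet libraries together.

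Eif4a1, the main helicase that unwinds leader sequences, had 1724, 6613 and 3884 normalized counts among controls and 1833, 3749 and 3002 with the E3–E12 diet. Eif4a2, its close relative, had 829.8, 1326 and 1138 against 730.2, 1073 and 793. Eif4b, which stimulates the helicase, had 1081, 5337 and 1355 against 954, 1399 and 1995. Each of these genes was highest in control replicate 2, and each had a negative log2 fold change, between -0.52 and -0.34, with a standard error of 0.47 or more. Without that library the log2 fold change was 0.084 for Eif4a1, 0.20 for Eif4b and -0.19 for Eif4a2, so the sign turned for Eif4a1 and Eif4b.

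The 4E-binding proteins restrain eIF4E. Eif4ebp2, the form that prevails in brain, was the most abundant here, with 4886, 4765 and 7595 normalized counts among controls and 4125, 5415 and 7595 with the E3–E12 diet. Eif4ebp1 was lower, at 409, 608 and 302 against 717, 490.1 and 546. Eif4ebp3 was high in 1 library, with 10.1, 775 and 1.10 among controls and 0, 0 and 14.2 with the E3–E12 diet. Its log2 fold change of -3.41 (standard error 2.26) was the most negative of the factors and became -0.97 without control replicate 2, and 65.5% of its windows also occur in another annotated gene. Over the 16 tested Eif4 genes 6 log2 fold changes were positive, and 10 without control replicate 2.

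Of the factors that act late in initiation, Eif5, which makes eIF2 hydrolyse its GTP, had 2457, 3854 and 3919 normalized counts among controls and 1614, 5047 and 3776 with the E3–E12 diet. Eif5a, the protein with the amino acid hypusine that helps ribosomes over difficult peptide bonds, had 956, 3604 and 2007 against 1422, 1523 and 4446. Eif6 keeps free large subunits from joining too soon. It had 87.1, 65.4 and 123.3 against 115, 384 and 200.4, with a log2 fold change of 1.21 (standard error 0.73) that ranged from 0.77 to 1.63 with 1 library left out at a time. E3–E12 diet replicate 1 lay below control replicate 3, so the diets overlapped.

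Among the elongation factors, the guanine nucleotide exchange factor of eEF1A is built from eEF1B subunits. Eef1b2, its exchange subunit, had 51.4, 132 and 312 normalized counts among controls and 63.3, 87.6 and 359 with the E3–E12 diet, so that control replicate 3 and E3–E12 diet replicate 3 were the highest. Eef1g, the structural subunit, had 596, 1421 and 672 against 376, 610.3 and 887, and 44.2% of its windows are shared with other genes. Of the 9 tested Eef1 genes 3 were positive, with a median log2 fold change of -0.14.

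The 3 Eef2 genes all had a negative log2 fold change, which was near zero for Eef2 itself (-0.055, standard error 0.55). Eef2k, the kinase that inactivates eEF2, had 599, 2122 and 1119 normalized counts among controls and 459.9, 666 and 1039 with the E3–E12 diet. The log2 fold change of Eef2k was -0.72 (standard error 0.58) and -0.26 without control replicate 2, and the groups overlapped. Eef2kmt, which methylates eEF2, had 352, 665 and 476 against 267, 189 and 401, a log2 fold change of -0.82 (standard error 0.56) that was -0.59 without control replicate 2. In both other scalings and without control replicate 2, Eef2 turned positive and the other 2 genes stayed negative.

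Ratios between related factors within a library do not depend on a scaling that uses 1 factor per library. An adjustment made separately for each gene could still move them, and whether the deposited values had one is not known. Of 11 such pairs none separated the diets, and exact permutation tests over the libraries (two-sided, 3 against 3, which cannot go below p = 0.1) gave p values from 0.2 to 1 and adjusted values from 0.733 to 1. The largest difference was in Eef1a1 over Eef1a2, with log2 ratios of 6.82, 13.1 and 9.44 among controls and 6.52, 6.41 and 7.94 with the E3–E12 diet (difference -2.83, exact p = 0.2). The control value of 13.1 is that of the library with Eef1a2 at 0, and the difference was -1.18 without it and -1.66 with a pseudocount of 10. Eif3j1 over Eif3j2 differed by -1.18 (exact p = 0.2) and rests on reads shared by the pair.

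The steadiest pair was Eif4g1 over Eif4g3, both scaffolds of eIF4F. Its log2 ratio was -1.02, -1.08 and -1.27 among controls and -1.12, -0.69 and -0.84 with the E3–E12 diet, a difference of 0.24 (exact p = 0.3). Eif4e over its rival Eif4e2 was -2.27, -3.31 and -2.64 against -2.57, -3.48 and -2.97 (difference -0.27, exact p = 0.6). The log2 ratio of Eif4ebp1 to Eif4ebp2 lay between -4.65 and -2.52 in every library, and Eif4a1 exceeded Eif4a2 in every library.

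**Figure D5:**
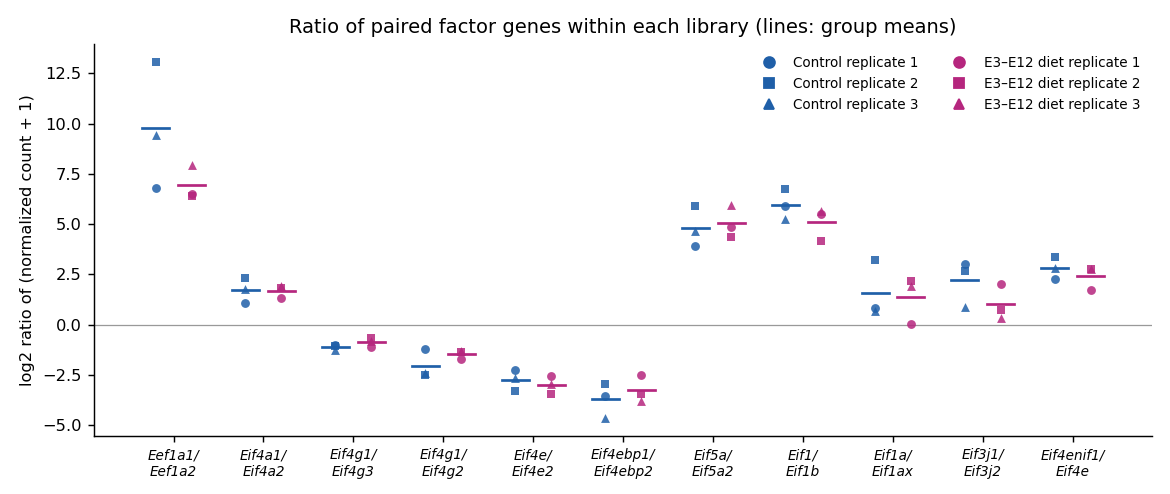
Log2 ratio of (normalized count + 1) between related factor genes within each library, for 11 pairs. Points are libraries, controls in blue and E3–E12 diet mice in magenta, and lines are group means. The groups overlapped in every pair, and the ratio of Eef1a1 to Eef1a2 had the widest spread because Eef1a2 was listed at 0 in control replicate 2.

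Genes that act with the factors were taken from 8 lists with 58 genes, of which 56 were tested. No gene of these lists passed the adjusted threshold and none had an unadjusted p under 0.05. The study, which used DESeq2 with an adjusted p under 0.1, listed Pabpc4 and Dhx9 as upregulated and Mtif3 as downregulated in E3–E12 diet mice. Here Dhx9 had 758, 0 and 1480 normalized counts against 536, 1001 and 1061, and Mtif3 had 48.0, 5583 and 112 against 41.6, 93.0 and 59.5. In both genes the diets overlapped, and control replicate 2 lay far from all other libraries. Pabpc4 is described below. Of the 56 genes, the log2 fold change was positive for 25 and negative for 31, with a median of -0.067. The split was 33 and 23 with equal totals, so it moved with the scaling as that of the factors did. In 5 genes (8.93% of those tested, against 5.90% of all genes tested) the diets did not overlap. These 5 are named next, with Atf4 and Pabpc1 for comparison, and were chosen after their values were seen.

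Eif2ak4 encodes GCN2, the eIF2 kinase that senses uncharged tRNA. It had 509, 1421 and 611 normalized counts among controls and 421, 403 and 386 with the E3–E12 diet, a log2 fold change of -0.92 (standard error 0.54) that was -0.47 without control replicate 2. Of the 11 tested genes of the eIF2 kinases and the integrated stress response 3 were positive, and 8 without that library. Atf4, the transcription factor whose mRNA is translated when eIF2 is phosphorylated, had 1195, 6616 and 2742 against 1546, 3268 and 2772.

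Pabpc4 and Paip1, which encode a poly(A)-binding protein and a partner of that family, lay apart in opposite directions. Pabpc4 had 243, 263 and 392 normalized counts among controls and 481, 546 and 1084 with the E3–E12 diet (log2 fold change 1.17, standard error 0.55, and 1.09 without control replicate 2). Paip1 had 142, 249 and 213 against 85.9, 74.8 and 73.8 (log2 fold change -1.32, standard error 0.68, and -1.15 without control replicate 2). Neither passed the test used here. The unadjusted limma p was 0.0556 for Pabpc4 and 0.0766 for Paip1, and the adjusted p was 0.999 for both. Pabpc1, the main form, overlapped, with 6293, 6831 and 8128 against 4511, 4683 and 14693.

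The other genes without overlap were Mlst8, a subunit of mTORC1, and Guf1, a mitochondrial elongation factor. Mlst8 had 88.9, 0 and 101 normalized counts among controls and 134, 123.4 and 124 with the E3–E12 diet, and a log2 fold change of 2.61 that was 0.42 without control replicate 2, in which it was listed at 0. Guf1 had 488, 168 and 231 against 151, 134 and 115, a log2 fold change of -1.0 (standard error 0.65) that was -1.34 without control replicate 2. All 6 termination and recycling genes were positive, but 2 of 6 were without control replicate 2, and 4 of 6 after quantile normalization. In the remaining lists 6 of 12 mTORC1 and cap kinase genes, 1 of 6 genes of poly(A)-binding proteins, 3 of 10 mitochondrial factors, neither of the hypusination enzymes, 2 of 3 scanning helicases and 4 of 6 genes of diphthamide synthesis were positive. Without control replicate 2 the positive genes of these lists numbered 7, 2, 3, 1, 0 and 3 in the same order.

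Markers of other cells varied between libraries beside these genes. The median log2 fold change of the 6 astrocyte markers was 0.89, with all 6 positive and 1 with an unadjusted p under 0.05, and 4 of 6 were positive without control replicate 2 and 5 of 6 after quantile normalization. Their sum ran from 1738 normalized counts in control replicate 2 to 9569 in E3–E12 diet replicate 1. The 10 microglial markers were all negative with a median of -0.25, whereas 9 of the 10 were positive without control replicate 2, 4 after quantile normalization and 3 with equal totals. The 6 oligodendrocyte markers summed to between 4994 and 42918, the 6 endothelial markers to between 4538 and 13535, and the 4 choroid plexus markers to between 52.4 and 39776. The median log2 fold changes of these 3 lists were -0.39, 1.36 and -1.46, and without control replicate 2 they were -0.22, -0.069 and -2.79. For the 8 neuronal markers the median was 0.66, and -0.13 without that library. Of the erythroid markers, 3 were tested and all were negative, and the 4 together stayed at or below 125. The part of these cells in the values of the factors, which other cells express too, was not tested.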

How the data were processed

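The authors deposited 1 table of normalized counts per gene (a signal value, with 26789 genes and 6 libraries). The submitters' processing notes name FastQC, STAR, featureCounts, DESeq2 and the build GRCm38, without versions. The name of the table mentions surrogate variables, and values of a library were not whole multiples of 1 step, so raw reads could not be recovered and no count test was run. Read length was 75 bp in the labels and differs in the paper's methods, where the RNA was amplified.

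Symbols came from a table of gene names (26507 identifiers matched), and exon lengths, positions and shared 50-base windows from GENCODE vM21 (GRCm38). Transcript starts came from RefSeq (GRCm38.p6).

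Genes averaging 10 or more normalized counts (18007) entered a comparison of the diets on log2(normalized count + 1) by limma 3.58.1 (R 4.3.3, intensity-dependent prior variance, two-sided, Benjamini-Hochberg adjustment, threshold 0.1 as in the study). The added 1 shrinks fold changes of low genes, whereas a value of 0 in 1 library can widen them. That of Eef1a2, listed at 0 in control replicate 2, was 2.52 here and 1.36 with a pseudocount of 10. Pair ratios were compared by exact permutation (scipy 1.17.1). The fit was also run on simulated data in which the planted differences were larger than that of any factor here. That run does not show how well smaller differences are found.

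The members and lists were chosen with earlier results of these data known. Values are given per library for 29 core factors, for genes whose groups did not overlap, for the 5 genes with the smallest p in each direction and for the 3 with the widest range. Fold changes with errors are given for the last 3 kinds. The alternatives were other pseudocounts (0.5 and 10), no filter, quantile normalization, equal totals, array weights, a replicate block, each library left out, and, chosen after seeing the data, no mean-variance trend. The libraries of a group came from separate litters by the study's protocol, which the labels do not state.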

Additional observations from a re-analysis of the deposited data

How the results depend on the processing

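No factor passed the adjusted threshold under any of the alternatives run. The number of factors with an unadjusted p under 0.05 was 0 in the deposited scaling, 1 after quantile normalization and 1 with equal totals (Eif3f in both), 4 with limma array weights (Eef1d, Eif2b1, Eif3f and Eif4e3, where control replicate 2 had a weight of 0.206), and 0 to 2 with 1 library left out. Of all genes tested, 2.22% were under 0.05 after quantile normalization, 1.29% with equal totals, 7.75% with array weights (against 6.45% of the factors) and 1.04% to 4.88% with 1 library left out. Without control replicate 1 the gene was Eif3g, without control replicate 2 the genes were Eef1d and Eif2b1, and without control replicate 3 the gene was Eif4ebp3. The number of factors whose groups did not overlap was 8 after quantile normalization (12.9%, against 6.85% of all genes tested), 7 with equal totals (11.3%, against 5.83%), where Eef2kmt, Eif2b1, Eif4h and Eif6 came in and Eef1a2 and Eif4e2 dropped out, and 8 to 14 with 1 library left out, where 12.6% to 17.8% of all genes tested did not overlap, since fewer libraries are compared. The median log2 fold change of the factors ranged from -0.30 to 0.13 with 1 library left out, was positive with equal totals at 0.052, and stayed negative in every other alternative that kept all libraries. Eif2b4 turned from 0.37 to values between -1.22 and 2.16 with 1 library left out. The difference in log2 ratio ranged from -0.36 to 0.27 for Eif4a1 over Eif4a2, from -0.24 to 0.74 for Eif5a over Eif5a2 and from -0.64 to 0.64 for Eif1a over Eif1ax. The cause of these changes was not tested.

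With the replicate number as a block, 0 factors passed (smallest adjusted p of a factor 0.979, limma) and 0 were under an unadjusted p of 0.05. Libraries of the same number deviated from their group means with correlations of 0.260, 0.035 and 0.14 across genes for replicates 1, 2 and 3. Control replicates 1 and 3 correlated best with the E3–E12 diet library of the same number. Control replicate 2 correlated best with E3–E12 diet replicate 3 (0.087). Whether libraries of the same number were handled together was not tested.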
